A study of Mus musculus with 12 samples.

Results

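Bc1, Rny1, Rny3, Rn7s1, Rn7s2, Rn7sk, Rmrp and Rpph1 are short non-coding RNAs made by RNA polymerase III. They were looked up by name in the YTHDF1 table of the authors and joined by Ensembl identifier to the count table. Of the 8 names, 5 were listed there (6 identifiers, since Rmrp has 2 with identical counts and was counted as 1 RNA). Rn7s1, Rn7s2 and Rn7sk were found in the count table through GENCODE M21 gene names, so that 8 RNAs with 9 identifiers are described out of 55573 genes. All 8 were among the 16820 genes tested, those whose normalized counts averaged 10 or more. The Input libraries raised that average for all 8 RNAs. Rny1 had 717 to 1207 counts in each of them and 1 to 89 in each RIP library. Whether it would pass without the Input libraries was not tested. Rn7s1, Rn7sk and Rpph1 had at least 1851, 697 and 610 counts in each RIP library.

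RNA was co-precipitated with endogenous YTHDF1, YTHDF2 or YTHDF3 (RNA immunoprecipitation, RIP) from lysates of primary hippocampal neurons of newborn C57BL/6 mice after 14 days in culture, to find which RNAs each protein binds. The labels name the antibody clones EPR22349-16 for YTHDF1, EPR23544-19 for YTHDF2 and EPR21912-3 for YTHDF3, and none for Input, the total RNA of a fraction of the lysate. There were 4 groups of 3 replicates, and the labels give no genetic change or treatment for any of them. Per the methods, the cultures came from pooled pups of both sexes and received Ara-C against glia. According to the methods, each replicate was 1 pool of lysate that was divided over the RIPs with a shared input, so the 3 comparisons with Input share their Input libraries. The 12 libraries held no control precipitation without a YTHDF antibody, so bound RNA and RNA carried over without binding cannot be told apart.

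RNA polymerase III transcribes small structured RNAs that work inside ribonucleoprotein particles and, unlike mRNAs, carry no cap of the mRNA type, no coding sequence and no added poly(A) tail. Some act in the cytoplasm: Bc1 is a rodent brain RNA found in dendrites where it represses translation, the Y RNAs bind the Ro60 protein, and 7SL is the scaffold of the signal recognition particle, which brings ribosomes to the endoplasmic reticulum. Others act in the nucleus or nucleolus, where 7SK holds the transcription elongation factor P-TEFb inactive, the RNA of RNase MRP takes part in ribosomal RNA processing and the RNA of RNase P trims the leader of tRNA precursors. YTHDF proteins are cytoplasmic readers of N6-methyladenosine (m6A), a modification made within DRACH motifs, of which GGAC is the most common core.

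The sequences of 4 RNAs are shown: Bc1 and the Y RNAs, which were the RNAs called higher with YTHDF1 than with YTHDF2, and Rmrp, which was the least depleted with YTHDF2. All are GENCODE M21 transcripts in build GRCm38, written as DNA from the 5′ to the 3′ end. Capitals mark GGAC, searched on the transcript strand.
Bc1 (chr7:144914470-144914637, plus strand): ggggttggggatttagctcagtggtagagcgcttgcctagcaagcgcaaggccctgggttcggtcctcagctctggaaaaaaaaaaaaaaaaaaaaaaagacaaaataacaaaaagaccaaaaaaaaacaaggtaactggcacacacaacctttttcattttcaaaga
Rny1 (chr6:47788069-47788180, minus strand): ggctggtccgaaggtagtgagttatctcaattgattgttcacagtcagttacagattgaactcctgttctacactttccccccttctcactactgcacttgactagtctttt
Rny3 (chr6:47781624-47781725, plus strand): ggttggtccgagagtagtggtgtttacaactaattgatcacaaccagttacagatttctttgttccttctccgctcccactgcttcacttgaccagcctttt
Rmrp (chr4:43492788-43493058, minus strand): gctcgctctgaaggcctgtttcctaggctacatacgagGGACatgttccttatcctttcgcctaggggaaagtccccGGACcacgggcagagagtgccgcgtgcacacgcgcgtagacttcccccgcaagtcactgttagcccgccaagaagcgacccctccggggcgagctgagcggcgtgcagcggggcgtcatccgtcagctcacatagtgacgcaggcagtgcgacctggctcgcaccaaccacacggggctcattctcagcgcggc

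GGAC was found 2 times in Rmrp, with the first at base 39, 2 times in Rn7sk, with the first at base 147, and 1 time in Rn7s1 and in Rn7s2, at base 155. It was not in Bc1, Rny1, Rny3 or Rpph1. Other DRACH sequences were not searched, so an RNA without GGAC may still hold a DRACH motif. Of the 9986 transcripts between 102 and 331 bases long, 50.3% held GGAC. The 4 of 8 RNAs with it, counting the identical Rn7s1 and Rn7s2 separately, are close to that share. A run of TTTT, the letters of a polymerase III terminator, closed Rny1 (base 109 of 112) and Rny3 (base 99 of 102) and was near the 3′ end of Bc1, and 46.9% of transcripts of like length held one. GTTCGANNC, a strict form of the B box of internal polymerase III promoters, was in none of the 8 and in 0.361% of transcripts of like length. The GC content ran from 40.5% in Bc1 to 67.1% in Rpph1.

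Libraries held between 6020072 and 38909592 counts, and no pair of libraries was identical. All 7 neuron markers were among the genes tested, with a summed level of 3114 to 4535 normalized CPM (reads of a gene scaled to a common library size) in Input and 2480 to 7877 in the RIPs. The 5 astrocyte markers summed to 256 to 2520 CPM in Input and 193 to 1555 in the RIPs, the 3 of 5 oligodendrocyte markers tested to 14.2 to 36.1 and the 1 of 6 microglia markers tested to 0.901 to 3.61. None of the listed markers was at 0 in every library. Of all genes tested, 26.1%, 19.3% and 23.2% were depleted against Input with YTHDF1, YTHDF2 and YTHDF3, and 27.5%, 16.1% and 16.7% were enriched. Of the 7 neuron markers, 1 was enriched with YTHDF1, 1 was depleted with YTHDF2 and 1 was enriched with YTHDF3. Of the astrocyte, oligodendrocyte and microglia markers tested, 1 oligodendrocyte marker was depleted with YTHDF1 and none was enriched in a RIP. Their part in the results below was not tested, and in bulk cultures fewer cells of a type and less RNA per cell cannot be told apart.

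All 8 RNAs were lower in every RIP library than in every Input library. In the fit across all genes (edgeR's quasi-likelihood test with Benjamini-Hochberg adjustment), 8 of 8 were called depleted in the YTHDF1 RIP, against 26.1% of genes tested, 8 of 8 in the YTHDF2 RIP, against 19.3%, and 8 of 8 in the YTHDF3 RIP, against 23.2%. None was enriched, where 27.5% of genes were with YTHDF1, 16.1% with YTHDF2 and 16.7% with YTHDF3. A call needed a log2 fold change of 0.32 or more in size and an adjusted p of at most 0.05. Their median log2 fold change was -4.20 for YTHDF1, -5.05 for YTHDF2 and -7.75 for YTHDF3, where that over all genes was 0.02, 0.02 and 0.05, and with 7SL counted once it was -4.07, -5.28 and -7.50. Together they held 9.94% ± 0.830 (SD, n = 3) of all counts in Input, and 0.388% ± 0.283, 0.401% ± 0.127 and 0.0334% ± 0.00835 with YTHDF1, YTHDF2 and YTHDF3, in that order. Rn7s1 and Rn7s2 hold the same reads in this sum, as described for 7SL below.

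**Figure D1:**
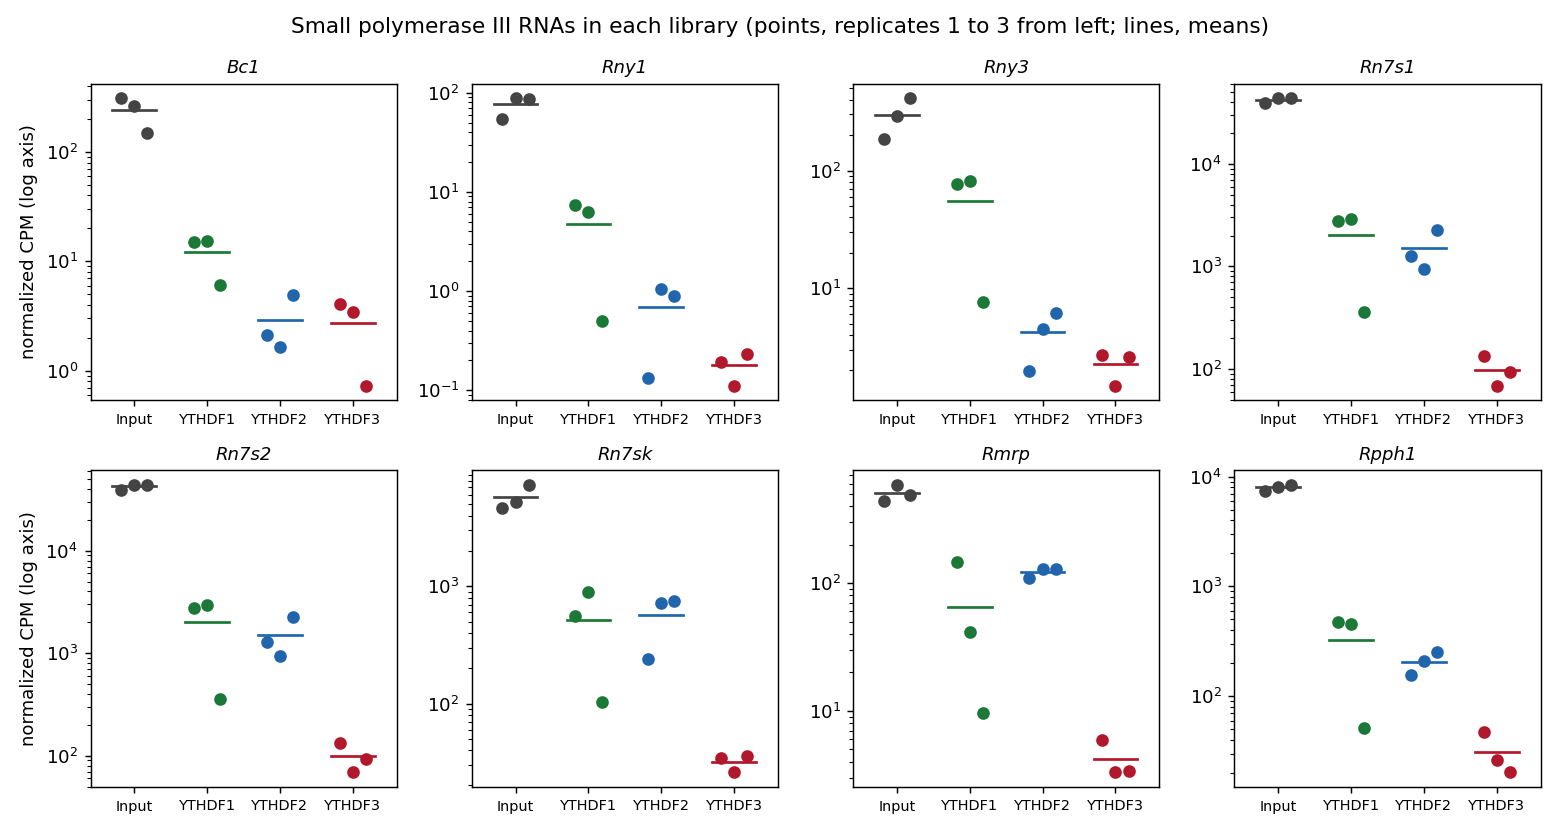
Normalized CPM (log axis, scaled separately for each RNA) of the 8 RNAs in the 12 libraries, with points for replicates 1 to 3 from left to right and a line at the mean of each group. Every RIP point lies below every Input point of the same RNA, and replicate 3 is the lowest YTHDF1 point in each panel.

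The replicates of the YTHDF1 RIP were spread more widely than those of the other groups for all of these RNAs but Bc1, whose highest replicate was 2.54 times the lowest with YTHDF1, 3.00 times with YTHDF2 and 5.60 times with YTHDF3. Replicate 3, the library with the most counts, had the lowest level of all 8 RNAs, and the highest YTHDF1 replicate was between 2.54 and 15.2 times the lowest, where the median gene differed by 1.81 times. In Input these RNAs differed by 1.11 to 2.21 times between replicates, with a median gene at 1.42. The range was 1.19 to 7.88 times with YTHDF2 and 1.38 to 5.60 times with YTHDF3, with median genes at 1.47 and 1.41. Without YTHDF1 replicate 3, all 8 stayed depleted in the YTHDF1 RIP, with log2 fold changes from -4.20 for Rpph1 to -2.0 for Rny3. Whether depth or another property of that library goes with these values was not tested.

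Bc1 (ENSMUSG00000115783, 168 bases) was present in Input at 311, 262.5 and 148 CPM in replicates 1, 2 and 3. In the RIPs it was at 14.9, 15.4 and 6.06 CPM with YTHDF1, at 2.13, 1.64 and 4.94 CPM with YTHDF2 and at 4.08, 3.44 and 0.728 CPM with YTHDF3. The values of the YTHDF2 and YTHDF3 libraries overlapped, and all YTHDF1 libraries were above them. Bc1 was 20.0-fold lower than Input in the YTHDF1 RIP (log2 fold change -4.33 ± 0.63 SE, edgeR adjusted p = 0.000186), 81.0-fold lower in the YTHDF2 RIP (-6.34 ± 0.71, 0.000249) and 87.7-fold lower in the YTHDF3 RIP (-6.46 ± 0.70, 6.01e-05). The counts behind the lowest values were small, 11 to 44 per YTHDF2 library and 22 to 105 per YTHDF3 library.

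The 5′ part of Bc1 is of the repeat type that is scattered through the genome. By blastn, 17 other genes held a stretch of at least 50 bases with at least 90% identity to Bc1, of which 15 were protein-coding and 16 had a count in Input. Their summed counts were 222% of the Bc1 count in Input, 7151% with YTHDF1, 24231% with YTHDF2 and 38850% with YTHDF3. These are counts over the whole length of each gene, not over the matching stretch. They therefore do not measure how many reads are shared with Bc1. Since every alignment of a read was counted, Bc1 may include reads of such copies, and their part in its level was not tested.

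The Y RNAs are small stem-loop RNAs with a Ro60 binding site. Rny1 (ENSMUSG00000065701, 112 bases) had 54.6, 88.5 and 86.4 CPM in Input, 7.40, 6.33 and 0.505 CPM with YTHDF1, 0.133, 1.05 and 0.898 CPM with YTHDF2 and 0.194, 0.111 and 0.232 CPM with YTHDF3. The YTHDF2 and YTHDF3 values rest on 1 to 8 counts per library. YTHDF1 replicate 3 lay among the YTHDF2 libraries. The log2 fold changes against Input were -4.07 ± 0.73 (edgeR adjusted p = 0.00073), -6.77 ± 0.90 (0.000408) and -8.67 ± 0.94 (6.22e-05).

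Rny3 (ENSMUSG00000064945, 102 bases), the other Y RNA of the mouse and a neighbour of Rny1 on chromosome 6, was at 187, 292 and 414 CPM in Input. It was at 76.8, 81.8 and 7.64 CPM with YTHDF1, at 1.99, 4.49 and 6.17 CPM with YTHDF2 and at 2.72, 1.48 and 2.58 CPM with YTHDF3. All YTHDF1 libraries were above all YTHDF2 and YTHDF3 libraries, and the latter 2 groups overlapped. Against Input the YTHDF1 RIP was 5.39-fold lower (log2 fold change -2.43 ± 0.69, edgeR adjusted p = 0.0111), the smallest YTHDF1 difference among the 8 RNAs. The YTHDF2 RIP was 70.0-fold lower (-6.13 ± 0.84, 0.000456) and the YTHDF3 RIP 131-fold lower (-7.04 ± 0.86, 0.000107). When YTHDF1 and Input were fitted alone with the replicate number as a block, Rny3 kept its direction at -2.86 with an adjusted p of 0.0538. No copy of Rny3 was found among annotated transcripts, and the copies of Rny1 held at most 0.497% of its count in Input.

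7SL RNA is represented by Rn7s1 (ENSMUSG00000099021, chr12:69159295-69159594, plus strand) and Rn7s2 (ENSMUSG00000099250, chr12:69361182-69361481, minus strand). Their 300-base transcripts were identical over their whole length and their counts differed by at most 0.157% in any library, so they are 1 measurement listed under 2 genes. Rn7s1 had 39401, 43904 and 43589 CPM in Input, which is 4.23% ± 0.310 (SD, n = 3) of all counts. It had 2756, 2932 and 357 CPM with YTHDF1, 1271, 943 and 2274 CPM with YTHDF2 and 134, 68.5 and 93.5 CPM with YTHDF3. The YTHDF1 and YTHDF2 libraries overlapped, and all of them were above the YTHDF3 libraries. The log2 fold changes of Rn7s1 against Input were -4.39 ± 0.70 (21-fold lower, edgeR adjusted p = 0.000349), -4.82 ± 0.72 (28.3-fold, 0.000656) and -8.75 ± 0.85 (429-fold, 4.05e-05), and those of Rn7s2 were the same to 2 decimals.

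The annotation places further genes on the 7SL genes. Gm47287 and Gm47295, both annotated as miRNA, overlap Rn7s1 on the same strand, the first wholly inside it and the second running a few bases past its end, and Gm47305 and Gm47299 overlap Rn7s2 in the same way, so that a read from 7SL there is also counted as miRNA.

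Gm47287 held between 89.8% and 91.9% of the Rn7s1 count in the Input libraries and between 92.7% and 93.4% in the YTHDF3 libraries, and Gm47295 between 18.5% and 22% and between 14.4% and 15.6%. The log2 fold changes of Gm47287 against Input were -4.37 ± 0.70, -4.80 ± 0.72 and -8.72 ± 0.86 for YTHDF1, YTHDF2 and YTHDF3, close to those of Rn7s1. These 4 overlapping genes made up 52.1% ± 3.85 (SD, n = 3) of all counts of miRNA-type genes in Input. In the YTHDF1, YTHDF2 and YTHDF3 RIPs they made up 20.1% ± 8.61, 1.63% ± 0.556 and 6.72% ± 0.653. The miRNA-type total itself differed between groups. It held 17.5% to 18.8% of all counts in the Input libraries and 17.4% to 22.3% with YTHDF2. With YTHDF1 it held 0.358% to 3.46% and with YTHDF3 0.311% to 0.485%. The shares of the 4 overlapping genes in this total therefore do not rank the RIPs by 7SL level. Another 7SL gene, Rn7s6 (ENSMUSG00000092746), which shares the sequence, was also depleted, at -4.16 ± 0.78, -4.98 ± 0.81 and -9.09 ± 0.97 (edgeR adjusted p = 0.00099, 0.00101 and 5.78e-05). Over all 15 genes with a 7SL stretch outside Rn7s1 and Rn7s2, the summed count was 39.7% of Rn7s1 in Input and 34.4% to 45.7% in the RIP groups. This sum may count reads more than once. It holds both Rn7s6 (61861 to 132279 counts per Input library) and Gm47304, a miRNA-type gene matching 7SL, with nearly the same counts (61678 to 131898).

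Of the nuclear RNAs, 7SK (Rn7sk, ENSMUSG00000065037, chr9:78175303-78175633, minus strand, 331 bases) had 4623, 5298 and 7361 CPM in Input. It had 556, 893 and 102 CPM with YTHDF1, 242, 716 and 749.9 CPM with YTHDF2 and 34.4, 25.8 and 35.6 CPM with YTHDF3. The YTHDF1 and YTHDF2 libraries overlapped and all were above the YTHDF3 libraries. The log2 fold changes against Input were -3.48 ± 0.67 (11.1-fold lower, edgeR adjusted p = 0.00119), -3.34 ± 0.67 (10.1-fold, 0.00297) and -7.50 ± 0.81 (180-fold, 6.08e-05). The 12 other genes that match 7SK held 42.0% of its count in Input and 52.7% to 62.5% in the RIP groups.

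Rmrp (ENSMUSG00000088088, 271 bases), the RNA of RNase MRP, was at 440.4, 587 and 485 CPM in Input. It was at 145, 41.0 and 9.56 CPM with YTHDF1, at 109, 128 and 129.6 CPM with YTHDF2 and at 5.90, 3.30 and 3.37 CPM with YTHDF3. The YTHDF2 libraries were close together and lay between the highest YTHDF1 library and the other two. The log2 fold change was -2.96 ± 0.70 in the YTHDF1 RIP (7.76-fold lower, edgeR adjusted p = 0.00431), -2.05 ± 0.68 in the YTHDF2 RIP (4.13-fold, 0.0355) and -6.91 ± 0.85 in the YTHDF3 RIP (120-fold, 0.000112). The YTHDF2 call was lost when any 1 of the 3 Input or 3 YTHDF2 libraries was left out, with log2 fold changes between -2.14 and -1.92 and adjusted p between 0.057 and 0.106, and when the trend on gene length was removed, at -1.01 with 0.234. Ccdc107, a protein-coding gene on the opposite strand, overlaps Rmrp over 124 bases and had between 4.40% and 5.80% of the Rmrp count in Input, 5.17% to 47.5% with YTHDF1, 13.2% to 16.5% with YTHDF2 and 118% to 154% with YTHDF3, where it exceeded Rmrp. The counting used strand, so the reads of the 2 genes were assigned separately.

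Rpph1 (ENSMUSG00000092837, chr14:50807449-50807767, minus strand, 319 bases), the RNA of RNase P, was at 7460, 8066 and 8421 CPM in Input. It was at 478, 452 and 51.5 CPM with YTHDF1, at 154, 209 and 252 CPM with YTHDF2 and at 47.1, 26.1 and 20.2 CPM with YTHDF3. YTHDF1 replicate 3 was below the YTHDF2 libraries and the other two YTHDF1 libraries above them. The log2 fold changes against Input were -4.61 ± 0.70 (24.4-fold lower, edgeR adjusted p = 0.000253), -5.28 ± 0.72 (38.9-fold, 0.000476) and -8.00 ± 0.82 (257-fold, 4.83e-05). Ccnb1ip1, a protein-coding gene on the same strand, overlaps Rpph1 over 233 bases and had, to the nearest percent, all of its count in every group, so the level listed for Ccnb1ip1 (7980 CPM ± 487 in Input) cannot be told apart from that of Rpph1.

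**Figure D2:**
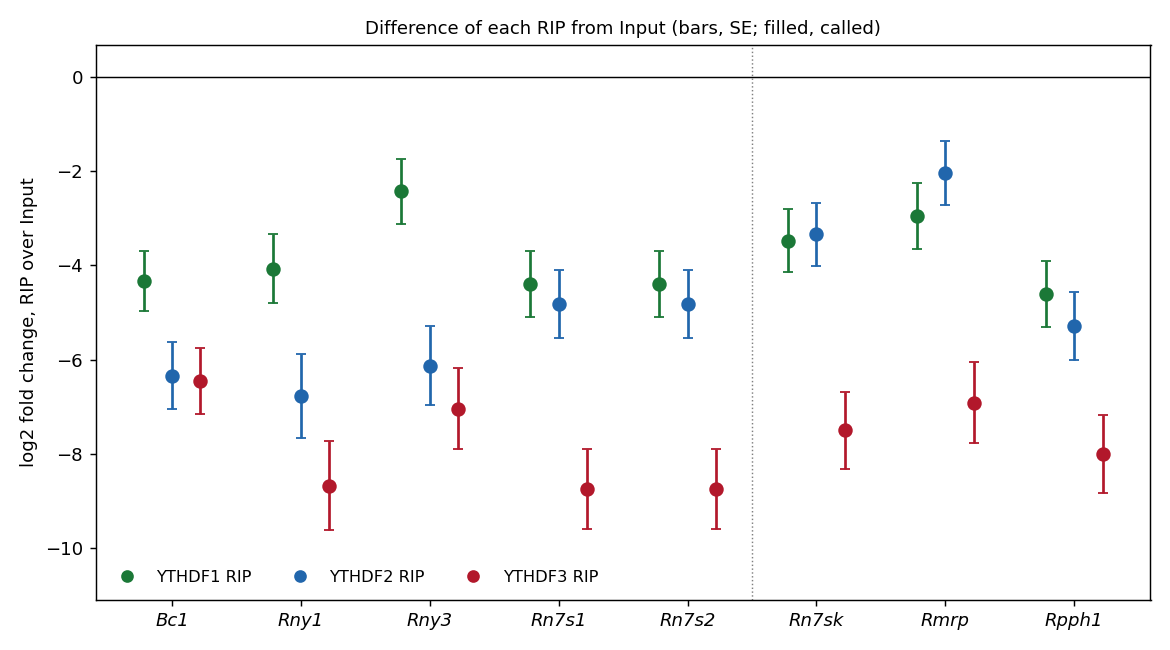
Log2 fold change of each RNA in the 3 RIPs over Input (points, bars for the SE from the fit across all genes), with the cytoplasmic RNAs left and the nuclear RNAs right of the dotted line. All 24 points lie below 0, from -2.05 for Rmrp with YTHDF2 to -8.75 for Rn7s1 with YTHDF3.

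Cytoplasmic and nuclear RNAs were depleted alike in direction, and their ranges overlapped in every RIP. The 5 cytoplasmic genes had log2 fold changes between -4.39 and -2.43 with YTHDF1, between -6.77 and -4.82 with YTHDF2 and between -8.75 and -6.46 with YTHDF3. The 3 nuclear genes lay between -4.61 and -2.96, between -5.28 and -2.05 and between -8.00 and -6.91. The medians of the 2 classes were -4.33 and -3.48 with YTHDF1, -6.13 and -3.34 with YTHDF2 and -8.67 and -7.50 with YTHDF3. With 7SL counted once, the cytoplasmic medians were -4.20, -6.23 and -7.86. The RNAs within a class are not replicates, and the difference between the classes was not tested. Ranked from the lowest log2 fold change of the 16820 genes, the 8 RNAs stood between places 10 and 758 with YTHDF1, 3 and 783 with YTHDF2 and 11 and 73 with YTHDF3.

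Expressed per kilobase of transcript, which allows levels of different RNAs to be compared, 7SL was the most abundant in Input with 140993 ± 8379 CPM per kb (SD, n = 3), followed by Rpph1 with 25023 ± 1524 and Rn7sk with 17404 ± 4310, whose replicates did not overlap. Rny3 (2918 ± 1112), Rmrp (1861 ± 278) and Bc1 (1432 ± 497) came next, with overlapping replicates between neighbours. Rny1 was lowest with 683 ± 169 CPM per kb. In the YTHDF3 RIP, Rn7s1 was still the highest at 329 ± 109 CPM per kb, Rpph1 (97.5 ± 44.3) and Rn7sk (96.4 ± 16.1) overlapped, and Rny1 was again the lowest at 1.60 ± 0.550. How well the library kit takes up RNAs of these lengths was not tested.

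The RIPs were compared with each other in the same fit, with a call from a log2 difference of 1 in size and an adjusted p up to 0.05. In the numbers of RNAs called, 7SL stands under both of its genes. Protein-coding genes held 69.93% to 75.36% of all counts in the YTHDF2 libraries and 62.15% to 64.65% in Input. They held 89.55% to 95.95% with YTHDF1 and 94.45% to 95.27% with YTHDF3. How this make-up goes with the differences between RIPs was not tested. Between YTHDF1 and YTHDF3, 8 of 8 RNAs were higher with YTHDF1, where 11.0% of genes were (0 were lower, against 3.62%), and all YTHDF1 libraries were above all YTHDF3 libraries for each. The log2 differences were 4.35 ± 0.70 for Rn7s1 (edgeR adjusted p = 0.00138), 4.60 ± 0.88 for Rny1 (0.00362), 4.61 ± 0.77 for Rny3 (0.00178), 4.02 ± 0.69 for Rn7sk (0.00203), 3.95 ± 0.75 for Rmrp (0.00338), 3.39 ± 0.66 for Rpph1 (0.00412) and 2.13 ± 0.59 for Bc1 (0.0246). The call for Bc1 was lost under 7 of 23 alternatives, including without YTHDF1 replicate 1 or 2 or YTHDF3 replicate 2 or 3, with log2 differences of 1.46 to 2.33 and adjusted p of 0.0524 to 0.0932. When only these 2 groups were fitted with the replicate number as a block, Bc1 alone kept its call, and the other 7 had log2 differences of 2.78 to 3.97 and adjusted p of 0.0544 to 0.0967. Whether equal replicate numbers mark a shared lysate in these 2 groups was not tested.

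Between YTHDF2 and YTHDF3, 5 of 8 RNAs were higher with YTHDF2, where 3.97% of genes were, and 0 were lower, against 1.17%. These were Rmrp at 4.86 ± 0.78 (edgeR adjusted p = 0.00679), Rn7sk at 4.16 ± 0.69 (0.00763), Rn7s1 and Rn7s2 at 3.92 ± 0.69 (0.00918) and Rpph1 at 2.72 ± 0.65 (0.0287), and for all 5 the YTHDF2 libraries were above the YTHDF3 libraries. The differences of Rny1 (1.90 ± 1.11, 0.315), Rny3 (0.91 ± 0.74, 0.498) and Bc1 (0.11 ± 0.63, 0.937) did not pass the test. With no filter on low counts, Rny1 was called higher with YTHDF2 at 1.66 (0.0317). Without YTHDF3 replicate 2 only Rmrp kept its call, and Rn7s1, Rn7s2 and Rn7sk had log2 differences of 3.72 to 4.02 with adjusted p of 0.054 to 0.0611. Rpph1 lost its call without any 1 of the 6 libraries compared, with log2 differences of 2.49 to 3.15 and adjusted p of 0.0541 to 0.122.

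Between YTHDF1 and YTHDF2, 3 of 8 RNAs were higher with YTHDF1, where 11.4% of genes were, and none was lower, where 6.13% were. Rny3 was 13.0-fold higher with YTHDF1 (log2 difference 3.70 ± 0.76, edgeR adjusted p = 0.00402), and this call held under all 23 alternatives. Rny1 was 6.52-fold higher (2.71 ± 0.88, 0.0396) and Bc1 4.04-fold higher (2.02 ± 0.63, 0.0338). The call of Rny1 was lost under 14 alternatives and that of Bc1 under 6, both among them without YTHDF1 replicate 1 or 2 or YTHDF2 replicate 1 or 2, and with the replicate number as a block in the fit of all 12 libraries (adjusted p of 0.0774 for Rny1 and 0.0562 for Bc1). Rpph1 (0.67 ± 0.61, 0.463), Rn7s1 (0.43 ± 0.61, 0.655), Rn7sk (-0.14 ± 0.61, 0.898) and Rmrp (-0.91 ± 0.66, 0.355) did not pass the test. Without YTHDF1 replicate 3, Rpph1 was called higher at 1.11 (0.0336), and without YTHDF1 replicate 1, Rmrp was called lower at -2.28 (0.00867).

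**Figure D3:**
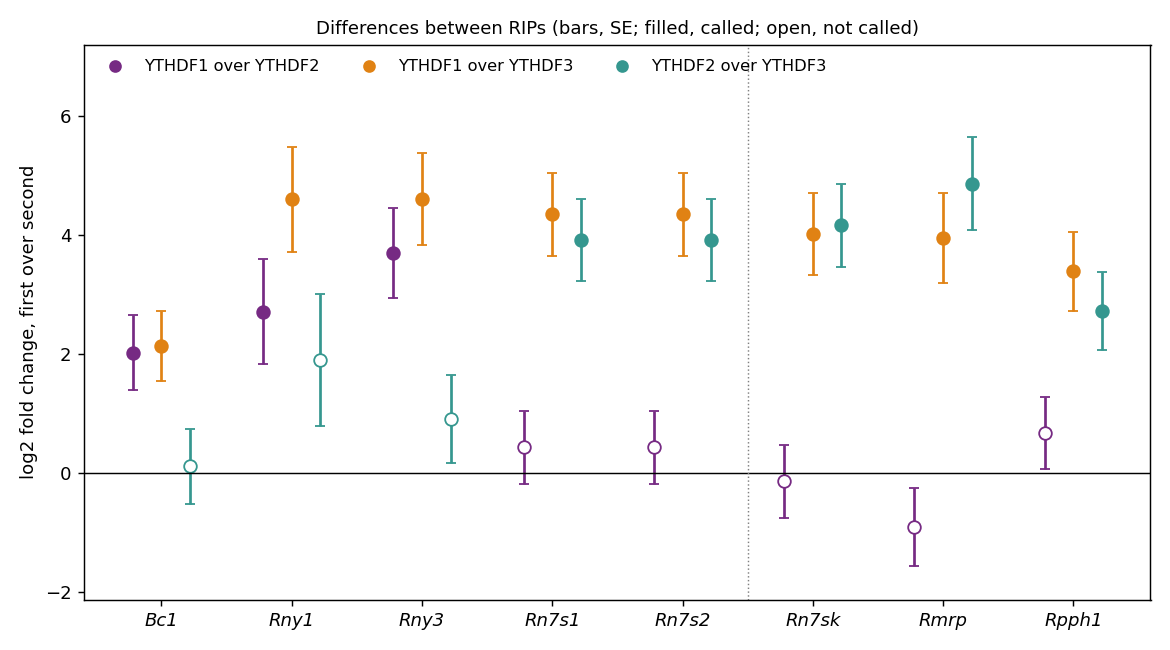
Log2 differences between pairs of RIPs for the 8 RNAs (points, bars for the SE, filled where called and open where not). The YTHDF1 over YTHDF3 points lie between 2.13 and 4.61, and the YTHDF2 over YTHDF3 points are open for Bc1, Rny1 and Rny3 alone.

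Ratios to Rn7sk within a library, which do not depend on the scaling between libraries, set Bc1 and the Y RNAs apart in the YTHDF2 RIP. The log2 ratio of Rny3 to Rn7sk was -7.06 ± 0.23 (SD, n = 3) with YTHDF2, beside -4.32 ± 0.27 in Input, -3.35 ± 0.45 with YTHDF1 and -3.86 ± 0.24 with YTHDF3, and the YTHDF2 libraries (-7.32 to -6.92) lay below all others (-4.63 to -2.86). Rny1 was likewise lowest with YTHDF2 at -9.99 ± 0.75, beside -6.24 ± 0.29 in Input, -7.01 ± 0.73 with YTHDF1 and -7.53 ± 0.30 with YTHDF3. Bc1 stood at -7.61 ± 1.02 with YTHDF2, where the other groups had means from -5.05 to -3.86. For all 3 RNAs, no YTHDF2 library reached the values of another group. No test was run on these ratios.

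The ratios of the other RNAs differed less between YTHDF2 and Input, though not in every RIP. Rn7s1 was at 2.90 ± 0.29 relative to Rn7sk in Input and at 1.94 ± 0.32, 1.46 ± 1.00 and 1.59 ± 0.32 with YTHDF1, YTHDF2 and YTHDF3, and no RIP library (0.40 to 2.39) reached the lowest Input library (2.57). Rpph1 was at 0.50 ± 0.27 in Input, -0.73 ± 0.45 with YTHDF1, -1.33 ± 0.60 with YTHDF2 and -0.12 ± 0.64 with YTHDF3. Rmrp was at -3.50 ± 0.39 in Input and -3.27 ± 1.26, -2.06 ± 0.78 and -2.97 ± 0.43 in the RIPs. For Rpph1 the YTHDF3 and Input libraries overlapped, and for Rmrp the YTHDF1 and YTHDF3 libraries overlapped those of Input.

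**Figure D4:**
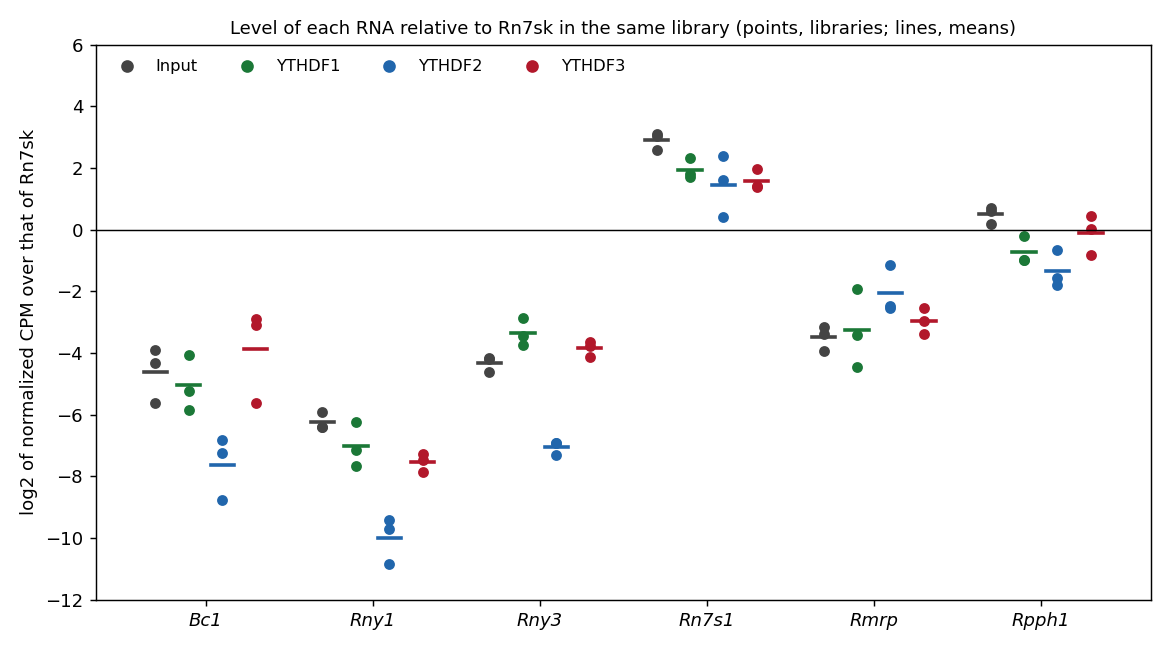
Log2 of the normalized CPM of each RNA over that of Rn7sk in the same library (points, libraries; lines, means of 3). For Bc1, Rny1 and Rny3 the YTHDF2 points lie below those of Input, YTHDF1 and YTHDF3.

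Other short genes gave a background for these values. Of 132 small nucleolar and spliceosomal RNA genes tested, 2 (1.52%) were depleted with YTHDF1, 19 (14.4%) with YTHDF2 and 51 (38.6%) with YTHDF3. The depleted shares of all genes were 26.1%, 19.3% and 23.2%. In the same order, 6 (4.55%), 6 (4.55%) and 8 (6.06%) were enriched, beside 27.5%, 16.1% and 16.7% of all genes. The median log2 fold changes of this list were 0.50, -0.30 and -1.42. Of 579 genes of at most 331 bases, leaving out the 8 RNAs and the genes sharing their reads, 195 (33.7%), 145 (25.0%) and 271 (46.8%) were depleted, with medians of -0.35, -0.47 and -1.10. The 8 RNAs had medians below both lists in all 3 RIPs. With the trend on gene length removed from each library, they still had negative log2 fold changes in every RIP, from -3.44 to -1.53 with YTHDF1, from -5.89 to -1.01 with YTHDF2 and from -7.16 to -4.76 with YTHDF3.

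By median log2 fold change, each list of partner or polymerase III mRNAs differed less from Input than the 8 RNAs did. Single mRNAs could differ more than single RNAs. Snapc5, of the initiation factors, had -2.55 with YTHDF1 and -2.15 with YTHDF2, where Rny3 had -2.43 and Rmrp -2.05, in that order. The counts called in each list stand beside the shares of all genes tested with YTHDF1, YTHDF2 and YTHDF3. These were 26.1%, 19.3% and 23.2% depleted and 27.5%, 16.1% and 16.7% enriched. Nothing particular to a list is read from the counts. Of 8 mRNAs for proteins of the signal recognition particle, 4 were depleted and 1 enriched with YTHDF1, 3 and 0 with YTHDF2 and 6 and 0 with YTHDF3, which is 50%, 37.5% and 75.0% depleted. Srp14, whose product binds the Alu domain of 7SL together with that of Srp9, fell by 2.02, 1.08 and 1.84 on the log2 scale (edgeR adjusted p = 0.000579, 0.0284 and 0.00147). Srp9 fell by 1.16 with YTHDF1 and 1.30 with YTHDF3 (0.00148 and 0.00107) and had -0.15 with YTHDF2 (0.634). Srp54a, which encodes the subunit that recognises the signal peptide, had 0.25 and -0.10 with YTHDF1 and YTHDF2 (0.232 and 0.68) and fell by 0.48 with YTHDF3 (0.0385).

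The mRNA of Ro60, which binds Y RNAs, did not pass the test in any RIP, with log2 fold changes of 0.27, -0.56 and 0.04 (edgeR adjusted p = 0.453, 0.153 and 0.933). Ssb, the mRNA of the La protein that binds the 3′ end of new polymerase III transcripts, had -0.12 with YTHDF1 (0.607) and fell by 0.75 with YTHDF2 and 0.54 with YTHDF3 (0.00971 and 0.0363). Of 7 mRNAs for 7SK particle and P-TEFb proteins, 5, 5 and 2 were enriched with YTHDF1, YTHDF2 and YTHDF3 and none was depleted. These are 71.4%, 71.4% and 28.6% of the list, beside 27.5%, 16.1% and 16.7% of all genes. Hexim1, the inhibitor that 7SK brings to P-TEFb, was enriched at 1.29 ± 0.29 and 1.27 ± 0.29 with YTHDF1 and YTHDF2 (0.00314 and 0.00631) and had 0.67 ± 0.29 with YTHDF3 (0.0868). Larp7, which protects the 3′ end of 7SK, had 0.18, 0.08 and -0.20 (0.565, 0.818 and 0.538).

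Of 11 mRNAs for RNase P and RNase MRP proteins, 7, 4 and 6 were depleted with YTHDF1, YTHDF2 and YTHDF3 and 1 was enriched in each. The depleted shares were 63.6%, 36.4% and 54.5%, beside 26.1%, 19.3% and 23.2% of all genes. The enriched mRNA was Pop1, which encodes the largest shared subunit, at 0.73 ± 0.18, 1.42 ± 0.18 and 0.92 ± 0.18 (edgeR adjusted p = 0.00573, 0.000397 and 0.00193). Rpp30 fell by 1.35 with YTHDF1 (0.0125) and had -1.09 and -0.51 with YTHDF2 and YTHDF3 (0.0527 and 0.306). Of 11 polymerase III subunit mRNAs, 5, 4 and 3 were enriched and 4, 3 and 4 depleted, and of 16 mRNAs for its initiation factors and regulators, 6, 6 and 5 were enriched and 6, 5 and 5 depleted. For the subunits this is 45.5%, 36.4% and 27.3% enriched and 36.4%, 27.3% and 36.4% depleted, and for the factors 37.5%, 37.5% and 31.2% enriched and 37.5%, 31.2% and 31.2% depleted. Polr3a, the largest subunit, was enriched at 1.55, 0.87 and 0.99 (1.76e-05, 0.00152 and 0.000412), and Gtf3c1, the largest subunit of the factor TFIIIC, at 2.07, 1.34 and 1.26 (9.3e-06, 0.000429 and 0.00026).

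The genes with the most similar pattern were sought by Pearson correlation of log2 CPM over the 12 libraries, as a description, since all points share the division into Input and RIPs. For Rn7sk the 3 most alike genes, Gm24146, Gm24447 and Gm26035 (r of 0.996 to 0.997), and for Rn7s1 Gm47304 and Rn7s6 (both 0.997) share sequence with the RNA itself. The next for Rn7s1 was Ndufa2 (0.990), an mRNA for a subunit of respiratory complex I. For Rny3 the most alike gene was Vaultrc5 (0.972), a vault RNA that is itself made by polymerase III, and for Rmrp 2 of the 3 were 5S ribosomal RNA genes, n-R5s56 (0.966) and n-R5s194 (0.962), with the histone gene H4c9 (0.964). For Rpph1 they were Rps29 (0.990), Rps2 (0.989) and Eif1 (0.988), which encode ribosomal proteins and an initiation factor. For Bc1 they were Mcub (0.972), 1500009C09Rik (0.965) and Ndufs7 (0.963), and for Rny1 Gm24105 (0.983), a gene matching 7SL, Gm45113 (0.982) and Fmc1 (0.977). Among the 8 RNAs, Rn7s1 and Rpph1 were the most alike apart from the 7SL pair (0.988), and Bc1 and Rmrp the least (0.718).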

How the data were processed

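The authors made strand-specific libraries of total RNA that carry molecular identifiers. The submitters' processing notes name UMI-tools 1.1.1, cutadapt 3.4, STAR 2.7.7a, featureCounts 2.0.1 and DESeq2, with build mm10 (GRCm38). The authors deposited raw counts per gene, for Ensembl release 97 genes with strand setting 2. In the counting command of the header, -O gives a read to every gene it overlaps and -M counts every alignment of it, so RNAs with copies or overlapping genes share counts. The authors' DESeq2 tables hold their fold changes and p-values and were used for gene names alone.

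Counts were fitted with edgeR 4.0.16 in R 4.3.3 (quasi-likelihood, 4 groups, 12 libraries, TMM factors after the filter) over 16820 genes whose normalized counts averaged 10 or more. The biological coefficient of variation was 0.322. Normalized CPM are counts over TMM-scaled library sizes , on the CPM scale, and log2 CPM used a prior count of 2. Names were matched for 55394 of 55573 genes (99.7%). Copies were found with blastn 2.17.0 among GENCODE M21 transcripts. The script was tested on simulated counts for YTHDF1 against Input, with 40 genes changed by each amount. At log2 fold changes of -4, -2 and -1, 33, 26 and 3 of them were called. At 1 and 2, 2 and 31 were called, and there were 4 false calls. Differences that did not pass the test, large ones among them, may thus have been missed. With 3 libraries against 3, an exact permutation test cannot go below p = 0.1, so p-values come from the fit over all genes, and they measure the spread between these replicates.

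The methods state that libraries of a replicate share a lysate. Residuals of same-numbered YTHDF3 and Input libraries correlated at 0.835, 0.539 and 0.812, while those of YTHDF1 and Input gave 0.0895, -0.269 and -0.329 and those of YTHDF2 and Input 0.186, -0.326 and -0.318. Same-numbered residuals of YTHDF1 and YTHDF2 gave 0.0697, 0.553 and 0.361, and those of YTHDF1 and YTHDF3 gave 0.106, -0.341 and -0.351. Some differently numbered pairs were higher, with Input replicate 3 at 0.471 with YTHDF1 replicate 2 and 0.568 with YTHDF2 replicate 2. Whether the replicate number marks a shared lysate for YTHDF1 and YTHDF2 was not tested. Values with the replicate number as a block are given as a description, beside results they change. The members, the lists and the rule for naming genes (all 8 members, set partner mRNAs, overlapping genes and the 3 most alike genes) were chosen with earlier results of these data known. Alternatives were DESeq2 1.42.0, its size factors, library size alone, protein-coding scaling, no filter, a minimum of 50, a replicate block, 2 groups alone, removal of the length trend with a loess span of 0.3 and leaving out each library. A scaling without these RNAs and the genes sharing their reads was chosen after seeing the data. The sequence of 7SL is not reported here.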

Additional observations from a re-analysis of the deposited data

Results flagged for a closer look

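The contrast with Input differed between RIPs, by the direct edgeR test of one RIP against another, for all 8 RNAs in at least 1 pair. The log2 difference of YTHDF1 over YTHDF3 was 2.13 for Bc1, 4.60 for Rny1, 4.61 for Rny3, 4.35 for Rn7s1 and for Rn7s2, 4.02 for Rn7sk, 3.95 for Rmrp and 3.39 for Rpph1. YTHDF2 over YTHDF3 gave 3.92 for Rn7s1 and for Rn7s2, 4.16 for Rn7sk, 4.86 for Rmrp and 2.72 for Rpph1. YTHDF1 over YTHDF2 gave 2.02 for Bc1, 2.71 for Rny1 and 3.70 for Rny3. Rn7s1 and Rn7s2 are the same reads counted under both genes.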

How the results depend on the processing

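Against Input, 7 or 8 RNAs were called depleted with YTHDF1 (Rny3 lost in 1 of 23 alternatives) and with YTHDF2 (Rmrp lost in 7), and 8 with YTHDF3 in all. The causes of the changes below were not tested. Of RNAs higher with YTHDF1 than with YTHDF2, 3 became 1 with library size alone and with a replicate block in all 12 libraries, and between 1 and 4 when 1 library was left out, with 0 to 1 lower. Of RNAs higher with YTHDF1 than YTHDF3, 8 became 1 with only the 2 groups and a replicate block. Of RNAs higher with YTHDF2 than YTHDF3, 5 became 1 without YTHDF3 replicate 2. Directions turned for results that were not called. Rn7sk between YTHDF1 and YTHDF2 ranged from -0.83 to 0.26 when 1 library was left out, and was above 0 without YTHDF1 replicate 3 (0.26), YTHDF2 replicate 2 (0.059) or YTHDF2 replicate 3 (0.11). Bc1 between YTHDF2 and YTHDF3 was -0.14 with library size alone, -0.11 with no filter, -0.58 with the length trend removed and from -0.53 to 0.51 when 1 library was left out, with -0.53 without YTHDF2 replicate 3 and -0.34 without YTHDF3 replicate 3. The replicate block changed no call of YTHDF2 or YTHDF3 against Input or of YTHDF2 against YTHDF3. Set against protein-coding counts, the 8 RNAs were 15.8% in Input and 0.559% with YTHDF2. Depth limits Rny1 most, with 1 to 8 counts per YTHDF2 or YTHDF3 library.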
